A study of Mus musculus with 8 samples.

Results

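The genes described here encode proteins of the mitochondrial ribosome. They were taken as every protein-coding gene of the mouse genome (build mm10, GENCODE annotation of GRCm38) whose symbol begins with Mrpl or Mrps followed by a digit, which gave 78 of 21938 protein-coding genes. Of these, 49 carry the large subunit symbol Mrpl and 29 the small subunit symbol Mrps, and they lie on 17 chromosomes. A list made from names and descent, with earlier results of these data known, gave 47 a counterpart in the bacterial ribosome. The other 31 were grouped as found in mitochondrial ribosomes only. That group is what the list left over, and it includes Mrps36, which has a role elsewhere as described below.

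The data are chromatin immunoprecipitation with sequencing (ChIP-seq) of nuclei from skeletal muscle of wild-type (WT) mice of strain C57/Bl6J, aged 10 to 12 weeks by the sample labels and 10 weeks by the design text. Each of 6 antibodies has 1 library: GR (the glucocorticoid receptor, which binds DNA once a steroid hormone activates it); RNA polymerase II (Pol2); the chromatin architecture protein CTCF; and the histone marks H3K4me3 (promoters), H3K27ac (active promoters and enhancers) and H3K4me1 (enhancers and the flanks of promoters). The labels tie one input library to CTCF and H3K4me3 and another to the other 4 antibodies, and name no treatment, so all groups share genotype, strain, tissue and age. Whether a library holds 1 mouse or a pool is not stated. With 1 library per antibody there is no replicate, no spread between animals and no test, and the counts below describe these libraries.

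The lists held 23188 GR, 20192 Pol2, 19811 H3K4me3, 44151 H3K27ac, 75523 H3K4me1 and 6526 CTCF peaks on the nuclear chromosomes. The depth of the libraries is unknown. As a check of the tissue, all 14 muscle fibre marker genes had a Pol2 peak at the transcription start site (TSS), among them Acta1, Ckm and Ttn. Of the genes that mark other cells, Pol2 was at 3 of 3 fibroblast, 1 of 4 endothelial, 1 of 3 immune, 1 of 3 Schwann cell, 0 of 2 satellite cell, 0 of 3 adipocyte, 0 of 3 liver and 0 of 3 neuron genes. The libraries are from bulk tissue, so occupancy in few cells and weak occupancy in many cells cannot be told apart, and the part of non-muscle nuclei in the counts below was not tested.

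Mitochondria keep their own ribosomes, which translate the few proteins encoded by mitochondrial DNA, all of them subunits of the respiratory chain and the ATP synthase. The ribosomal RNAs come from mitochondrial DNA, but every protein of the particle is encoded in the nucleus, made in the cytosol and imported, so both genomes must supply the same machine. Muscle fibres are rich in mitochondria, and nuclear genes for mitochondrial proteins are known for promoters with sites for nuclear respiratory factor 1 (NRF1), for ETS factors such as GABP (also called nuclear respiratory factor 2) and for YY1, while GR is known to bind the glucocorticoid response element (GRE).

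The promoter sequences come first, since the peaks at these genes sat on them. RefSeq promoters (build GRCm38.p6, 250 bases before the start to 50 after) were matched for 69 of the 78 genes. Each was searched on both strands for exact matches to an ETS motif (CCGGAAGT), an NRF1 motif (GCGCATGCG), a YY1 motif (AAGATGGCG) and an oestrogen-related receptor element, ERRE (TCAAGGTCA). The GRE was searched as a consensus of paired half-sites in which some positions may vary. The upstream stretches of Mrps22, chr9:98601680-98601929 on the minus strand, and of Mrpl22, chr11:58171414-58171660 on the plus strand, are shown because they stand for promoters without and with GR. They run 5′ to 3′ on the strand of the gene, with the ETS motif of Mrps22 and the NRF1 motif of Mrpl22 in capitals.

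Mrps22: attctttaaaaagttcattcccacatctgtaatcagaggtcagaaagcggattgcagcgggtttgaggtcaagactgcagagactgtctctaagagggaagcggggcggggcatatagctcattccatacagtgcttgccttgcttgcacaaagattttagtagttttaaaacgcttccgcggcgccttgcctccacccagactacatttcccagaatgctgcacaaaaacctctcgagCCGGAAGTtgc
Mrpl22: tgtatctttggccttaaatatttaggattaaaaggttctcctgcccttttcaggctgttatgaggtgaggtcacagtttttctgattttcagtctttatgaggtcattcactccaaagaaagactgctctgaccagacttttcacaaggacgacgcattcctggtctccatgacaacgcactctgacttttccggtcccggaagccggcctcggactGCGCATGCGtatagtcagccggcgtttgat

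In Mrps22 the capitals lay under Pol2 and H3K4me3 peaks, and the nearest GR peak was 37837 bases from a TSS. In Mrpl22 they lay under GR, Pol2 and H3K4me3 peaks. Windows of 30 bases around further sites, each on the strand of its gene and with the motif in capitals, show the ETS sites of Mrpl3 (chr9:105053238-105053267, plus strand) and Mrpl33 (chr5:31613937-31613966, plus strand), which like Mrps22 had no GR peak at the TSS, and those of Mrpl43 (chr19:45006436-45006465, minus strand) and Mrpl52 (chr14:54426899-54426928, plus strand), where GR covered the site. The Mrpl52 motif is on the other strand and reads as its reverse complement.

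Mrpl3: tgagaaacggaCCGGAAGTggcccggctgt
Mrpl33: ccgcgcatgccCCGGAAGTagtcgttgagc
Mrpl43: caaccccggaaCCGGAAGTcaccggttagt
Mrpl52: gggccacgcccACTTCCGGttcccttgctc

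The same kind of window shows NRF1 sites in Mrpl17 (chr7:105811079-105811108, minus strand) and Mrpl39 (chr16:84735350-84735379, minus strand), the members whose site lay under GR, Pol2, H3K4me3 and CTCF peaks together. The Mrpl39 site reads as a motif on either strand, 1 base apart.

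Mrpl17: ccgagttactGCGCATGCGtcctctgagac
Mrpl39: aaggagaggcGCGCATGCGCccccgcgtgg

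YY1 sites are shown for the 6 members that carry the motif on the strand of the gene, because all 6 lay just downstream of the start: Mrpl35 (chr6:71823742-71823771, minus), Mrpl37 (chr4:107066821-107066850, minus), Mrpl42 (chr10:95501903-95501932, minus), Mrps18a (chr17:46111005-46111034, plus), Mrps24 (chr11:5707652-5707681, minus) and Mrps27 (chr13:99344790-99344819, plus).

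Mrpl35: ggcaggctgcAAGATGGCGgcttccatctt
Mrpl37: tgcacgggcaAAGATGGCGgcgtccaggta
Mrpl42: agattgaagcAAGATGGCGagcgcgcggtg
Mrps18a: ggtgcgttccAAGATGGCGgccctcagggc
Mrps24: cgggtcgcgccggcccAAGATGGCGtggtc
Mrps27: ggtgcgctccAAGATGGCGgctcccatggt

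The motif began 11 bases after the RefSeq start in Mrps18a, 14 in Mrps27, 23 in Mrpl35, 26 in Mrpl37, 27 in Mrpl42 and 36 in Mrps24. The letters hold an ATG, and in 4 of the 6 (Mrpl35, Mrps18a, Mrps24 and Mrps27) that ATG is an annotated start codon of the gene. Among all promoters with the motif on the strand of the gene the same was true of 128 of 250 (51.2%). At these 4 the motif therefore overlaps coding sequence, and site and codon cannot be told apart in these letters.

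An ETS motif stood in 11 of the 69 member promoters (15.9%), against 5.54% of all 16492 protein-coding promoters of the same length. An NRF1 motif stood in 7 (10.1%, against 2.53%) and a YY1 motif in 8 (11.6%, against 2.03%). A closer comparison is with the 8030 promoters of genes that carried Pol2, H3K4me3 and H3K27ac at the TSS, called active genes from here on. There the shares were 10.1% for ETS, 4.55% for NRF1 and 3.81% for YY1. With 100 bases on each side of the start, NRF1 stood in 4 members (5.8%), against 3.5% of active genes. Beside the YY1 share stands that 37.7% of member windows held an annotated start codon, against 12.8% of active and 20.8% of all windows, and that 4 of the 8 members have their YY1 motif at one. At least 1 of the 3 motifs stood in 25 member promoters (36.2%), against 17.4% of active genes and 9.56% of all. Mrps27 alone held a pair of different motifs, ETS and YY1. No member promoter held the GRE (0.23% of all promoters did) or the ERRE (0.34%), which says only that no match to the GRE pattern or the ERRE letters is in these windows. The median GC content of the member promoters was 58.3%, between those of all promoters (57%) and active ones (61.7%). The median CpG count was 21 per promoter, against 14 and 22.

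**Figure D1:**
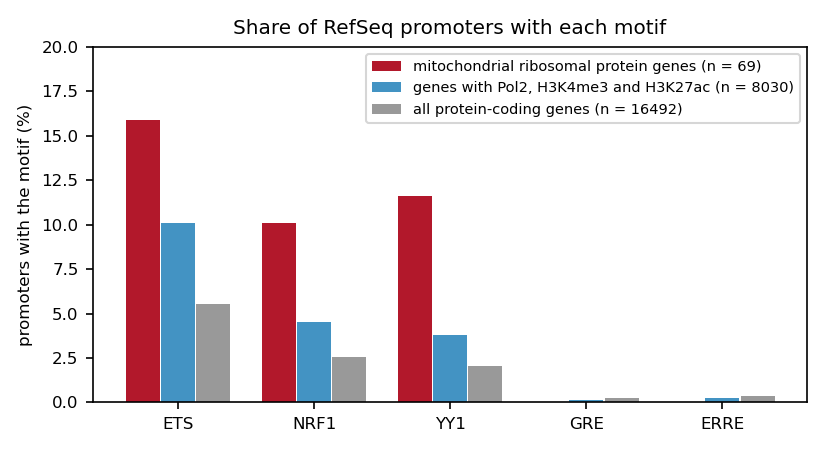
Bars give the percentage of RefSeq promoters (250 bases before to 50 after the start) that hold a match to each motif on either strand, for the 69 member promoters, 8030 active promoters and all 16492. The members' bars are the highest for ETS (15.9%), NRF1 (10.1%) and YY1 (11.6%), and they are at 0 for GRE and ERRE.

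At their start sites the members carried the marks of active promoters with hardly an exception. A peak counted as at the TSS when at least 1 base lay within 1 kb of any annotated TSS of the gene. H3K4me3 was at the TSS of all 78 members (61.5% of all genes), H3K27ac at all 78 (52.4%), H3K4me1 at all 78 (65.8%, or 94.1% of genes with H3K4me3) and Pol2 at 77 (98.7%, against 47.1%). GR was at 69 (88.5%), against 43.4% of all genes and 69.7% of genes with H3K4me3 at the TSS. CTCF was at 11 (14.1%, against 7.54%). Pol2, GR and the 3 histone marks were all present at 68 members (87.2%), against 38.2% of all genes. These shares sit far above the average gene, but among the 10109 active genes GR was at 86.8%, H3K4me1 at 95.1% and CTCF at 12.6%, so the members' GR share was near that of active genes at large. Cytosolic ribosomal protein genes had GR at 78 of 84 (92.9%) and nuclear genes for oxidative phosphorylation (OXPHOS) subunits at 77 of 86 (89.5%).

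**Figure D2:**
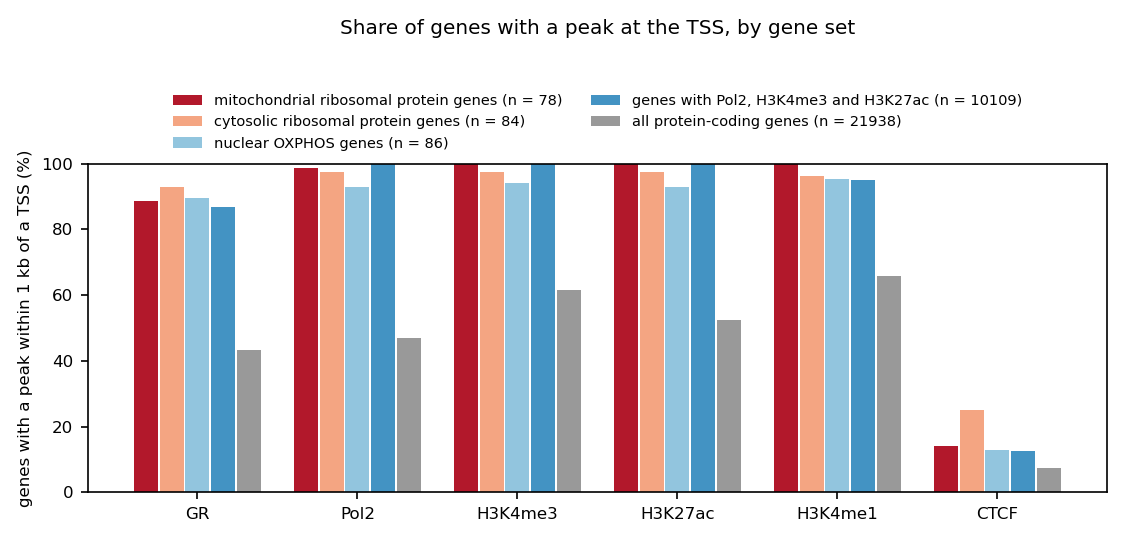
Bars give the percentage of genes in each set with at least 1 peak of the named list within 1 kb of a TSS. The 78 members (dark red) reach 88.5% for GR, close to the 86.8% of active genes (darker blue, defined by Pol2, H3K4me3 and H3K27ac and therefore at 100% for these) and above the 43.4% of all protein-coding genes (grey).

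The counts by subunit symbol and by evolutionary group were close. GR was at 43 of 49 Mrpl genes and 26 of 29 Mrps genes, Pol2 at 48 of 49 and 29 of 29. GR was at 40 of 47 members listed with a bacterial counterpart and 29 of the other 31 members. The median H3K4me3 fold was 38.44 in Mrpl and 41.41 in Mrps genes, with overlapping ranges (22.78 to 63.9 and 23.55 to 71.01). The symbol does not always give the subunit, as with Mrps30 below.

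Mrpl19, a large subunit protein gene on chr6:81957851-81965958, was the 1 member without Pol2 at the TSS. Its nearest Pol2 peak was 686590 bases away. Even so the TSS carried a GR peak of 194 bases, an H3K4me3 peak with a fold of 37.7 and an H3K27ac peak of 161 bases, the second narrowest widest H3K27ac peak among members after that of Mrps10 (147 bases). The GR peak, chr6:81965891-81966084, overlapped H3K4me3 and no Pol2.

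The members without GR at the TSS were Mrpl3, Mrpl20, Mrpl24, Mrpl28, Mrpl33, Mrpl46, Mrps5, Mrps11 and Mrps22, 9 in all. Each of them carried Pol2, H3K4me3, H3K27ac and H3K4me1 there. Their H3K4me3 folds ran from 22.78 to 59.27 with a median of 41.89, and those of the 69 members with GR from 23.55 to 71.01 with a median of 38.44. Their widest Pol2 peaks ran from 142 to 312 bases with a median of 192, those of the members with GR from 118 to 806 with a median of 293.5. Their widest H3K27ac peaks had a median of 458 bases against 596. The members without GR thus had narrower Pol2 and H3K27ac peaks at the median, with ranges that overlapped, and H3K4me3 of similar strength. ETS motifs stood in 3 of these 9 promoters and in 8 of the 60 with GR that had a RefSeq promoter. Among active genes GR was as frequent with the ETS motif (87.1%) as without it (87.3%), so nothing is read from these small counts.

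The GR peak nearest to a TSS was 2360 bases away at Mrps5, 3798 at Mrpl33, 8372 at Mrpl20, 8451 at Mrpl24 and 14940 at Mrpl28. For the remaining 4 no GR peak lay within 25 kb: the distance was 31298 bases at Mrpl46, 31458 at Mrps11, 37837 at Mrps22 and 60805 at Mrpl3. Mrpl3 encodes a protein that reaches towards the peptidyl transferase centre. It had the fifth highest H3K4me3 fold of the 78 (59.27) with no GR peak nearby. Mrpl46 and Mrps11 are the only members that share a promoter with another member, with TSS 30 bases apart on opposite strands. The pair shares both Pol2 peaks and the H3K4me3 peak (fold 41.89), so its values are not independent. With the pair counted once, the members without GR had a median H3K4me3 fold of 43.52, Pol2 width of 216 bases and H3K27ac width of 456.5 bases.

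For H3K4me3, as for CTCF, the authors deposited the strength of each peak. Taking the strongest H3K4me3 peak at each TSS, the fold of the 78 members ran from 22.78 to 71.01 with a median of 40.07, and that of all 13486 genes with H3K4me3 had a median of 33.51 and quartiles of 19.48 and 45.15. Of the members, 55 lay above the median of all genes, 23 below it, 25 above the upper quartile and 0 below the lower quartile. Active genes had a median of 38.71, cytosolic ribosomal protein genes 41.26 and OXPHOS genes 39.14, so the members' median was near that of other active promoters.

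Mrps7, whose protein lies in the head of the small subunit, had the highest fold (71.01, peak width 1917 bases). It was followed by Mrpl40 (63.9), Mrps24 (60.82), Mrpl48 (60.57) and Mrpl3 (59.27). A TSS of another gene lay 32 bases from that of Mrps7 (Gga3), 175 from Mrpl40 (Hira) and 52 from Mrpl48 (Rab6a). The folds of these genes therefore cannot be assigned to the member alone, while Mrps24 and Mrpl3 had no such neighbour within 1 kb. The lowest folds were those of Mrpl20 (22.78), Mrps23 (23.55), Mrps33 (26.27), Mrpl22 (27.23) and Mrpl45 (27.34). Mrps33 with its weak H3K4me3 had the strongest CTCF peak of the members, and Mrpl20 lacked GR at the TSS, while Mrps23 had the widest Pol2 peak (806 bases). Across members, the H3K4me3 fold and the width of the Pol2 peak showed hardly any relation (Spearman's rho 0.0571 over 77 genes of the same libraries). Pol2 width and H3K27ac width went together more (rho 0.483, 77 genes).

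**Figure D3:**
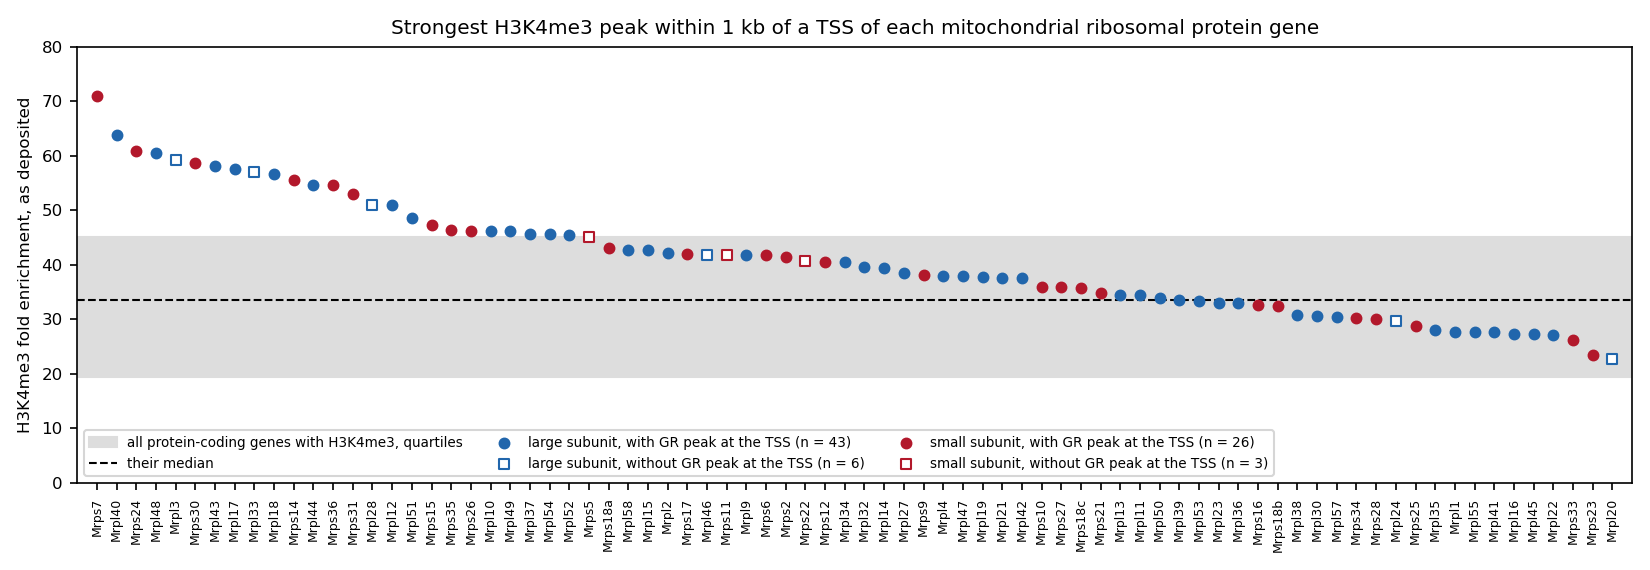
Points give the deposited fold of the strongest H3K4me3 peak within 1 kb of a TSS for each of the 78 members, ordered from highest to lowest. By symbol, Mrpl genes (large subunit) are blue and Mrps genes (small subunit) red, with open squares where no GR peak was at the TSS. The grey band and dashed line are the quartiles (19.48 to 45.15) and median (33.51) of all genes with H3K4me3, and no member falls below the band.

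The peaks had an order along the gene. Measured from the RefSeq start on the strand of the gene, the midpoint of the nearest GR peak had a median position of -31.5 bases (60 members), that of the Pol2 peak 26 bases (69 members), and the H3K4me3 summit 177 bases (69 members). GR lay within 150 bases of the start in 51 of 60 members (85%), against 74.2% of active genes. Pol2 did so in 61 of 69 (88.4%, against 76.4%). In 41 of 60 members (68.3%) the GR midpoint was upstream of the Pol2 midpoint, against 66% of active genes, so the order itself was that of active genes. The H3K4me3 summits fell on both sides of the start, with 15 of 69 upstream (21.7%, against 16.7% of active genes). Within 150 bases of the start were likewise 15 of 69 (21.7%), near the shares of active genes (19.4%) and all genes (22.8%). A GR peak covered a TSS base in 67 members (85.9%), against 36.2% of all genes and 74.5% of active genes. Pol2 covered a TSS base in 76 (97.4%, against 41.5% of all and 88.6% of active genes) and H3K4me3 in all 78 (57.9% and 98.3%). H3K27ac did so in 64 (82.1%, against 40.2% and 80.6%) and CTCF in 6 (7.69%, against 3.72% and 6.58%), both near the share of active genes. H3K4me1 did so in 46 (59%), above the 47.9% of all genes and below the 63.6% of active genes. H3K4me1 was thus within 1 kb of every member's TSS, but in many members only beside it.

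**Figure D4:**
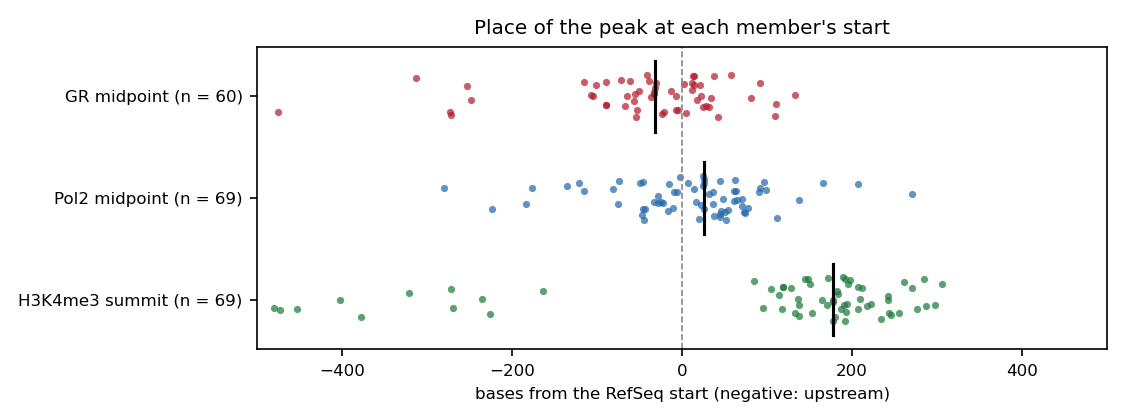
Points give, for each member with a RefSeq start, the position of the GR midpoint (60 members), Pol2 midpoint (69) and H3K4me3 summit (69) in bases from the start, with upstream negative; points are spread vertically for legibility. Black bars are the medians at -31.5, 26 and 177 bases, and 3 GR, 1 Pol2 and 5 H3K4me3 points lie beyond 500 bases and are not drawn.

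GR occupancy at these promoters was plain in form. Of the members, 61 had 1 GR peak at the TSS, 7 had a pair and Mrpl48 had 3. More than 1 GR peak was found at 8 members (10.3%), against 12.2% of all genes but 25.8% of active genes. Mrpl48 also had the most Pol2 peaks (6) and H3K4me3 peaks (4), and its TSS lie apart within a gene of chr7:100545751-100608301, so several promoters contribute. The widest GR peak at a member TSS had a median width of 289 bases with quartiles of 231 and 383, close to 280 for all genes with GR and 290 for active genes. Width stands here in place of strength, since the GR list held positions only.

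The widest GR peak belonged to Mrpl41 (609 bases, chr2:24975737-24976345), a protein of mitochondrial ribosomes only. That peak covers a TSS of Pnpla7, which is 935 bases from the Mrpl41 TSS on the other strand, and the peak over the Mrpl41 TSS itself was 415 bases wide. Mrps28 followed with 587 bases (chr3:8923440-8924026) and Mrpl17 with 527 bases (chr7:105810940-105811466). Of the 78 GR peaks at member TSS, 76 overlapped H3K4me3 (97.4%) and 73 overlapped Pol2 (93.6%). Among all 11528 GR peaks within 1 kb of a protein-coding TSS these shares were 92.7% and 82.2%.

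Under the 78 GR peaks at member TSS, the ETS motif was found in 7 (8.97%), the NRF1 motif in 5 (6.41%) and the YY1 motif in 9 (11.5%). All promoter GR peaks held them in 7.15%, 3.52% and 4.14%, and the 11660 GR peaks elsewhere in 0.506%, 0.3% and 0.197%. Whole peaks were searched, with median widths of 285.5 bases at member TSS, 245 at all promoters and 189 elsewhere. The part of width in these shares was not tested. The GRE stood under 0 of the 78, against 0.841% of promoter GR peaks and 7.26% of the GR peaks elsewhere. A share of 0.841% comes to fewer than 1 of 78 peaks, so a difference from other promoters was not detectable.

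A further 123 GR peaks lay within 25 kb of a member but not at its TSS, and 3 of them (2.44%) held a GRE. They are printed because they are the only matches to the GRE pattern under GR near these genes, on the plus strand with the element in capitals. The first lies 21021 bases from Mrpl43 (chr19:45027449-45027478) in an exon of Pdzd7, the second 18219 bases from Mrpl45 (chr11:97334113-97334142) in an annotated UTR of Gpr179, and the third 15303 bases from Mrps18b (chr17:35897249-35897278) in an exon of 2310061I04Rik.

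Mrpl43: gcccactAGCACACGGTGTTCTtggacatc
Mrpl45: agtggggAGAACAGAATGTCCCctgggctc
Mrps18b: ctcggacGGTACATGGTGTTCCgggagtga

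The peaks over the Mrpl43 and Mrpl45 elements (265 and 274 bases wide) overlapped H3K27ac and H3K4me1 but not H3K4me3. The peak near Mrps18b (339 bases) overlapped H3K4me3 at a TSS of 2310061I04Rik. In all 3 places the nearest TSS was that of another gene, and whether these elements act on the members was not measured.

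Within 25 kb of a TSS, GR was found at 74 members (94.9%), against 59.8% of all genes, 82.9% of genes with H3K4me3 at the TSS and 93.9% of active genes. H3K27ac was within 25 kb of all 78 (64.9% of all genes), and H3K4me1 too (77.6%, and 99.1% of active genes). The median was 2 GR peaks per member, against 1 for all genes and 2 for active genes. For 23 members (29.5%) the peak or peaks at the TSS were the only GR within 25 kb, against 16.1% of all genes and 31.8% of active genes. For 5 (6.41%) GR lay within 25 kb but not at the TSS, against 16.4% of all genes and 7.17% of active genes. Of the 123 GR peaks near members but not at their TSS, 71 were within 1 kb of a TSS of another protein-coding gene. Those further peaks of Mrpl34, for example, were at Abhd8, Dda1, Ano8 and Gtpbp3. The remaining 52 lay elsewhere, 21 of them around Mrpl23 alone.

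Mrpl23, whose protein lies at the polypeptide exit of the large subunit, had 22 GR peaks within 25 kb, and the next members, Mrpl34 and Mrpl43, had 7. Mrpl45, Mrpl58, Mrps18b and Mrps21 had 5 each. Mrpl58 encodes a peptidyl-tRNA hydrolase built into the large subunit, and 2 of its GR peaks lay at TSS of Atp5h and Kctd2. At Mrpl23 itself (chr7:142532686-142540747) the TSS held 1 GR peak of 138 bases, among the narrowest at a member, within a CTCF peak. The other 21 peaks lay outside the gene: 6 had the TSS of the fast troponin gene Tnnt3 as their nearest and 15 stood downstream of Mrpl23, up to the widest of 3106 bases (chr7:142549819-142552924). All 21 overlapped Pol2, 6 carried H3K4me1 with H3K27ac, 8 H3K4me1 only, 3 H3K4me3 and 4 none of these marks. Without these 21, the GR peaks away from member promoters number 102, of which 82 overlapped H3K4me3 and 9 carried H3K4me1 with H3K27ac.

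**Figure D5:**
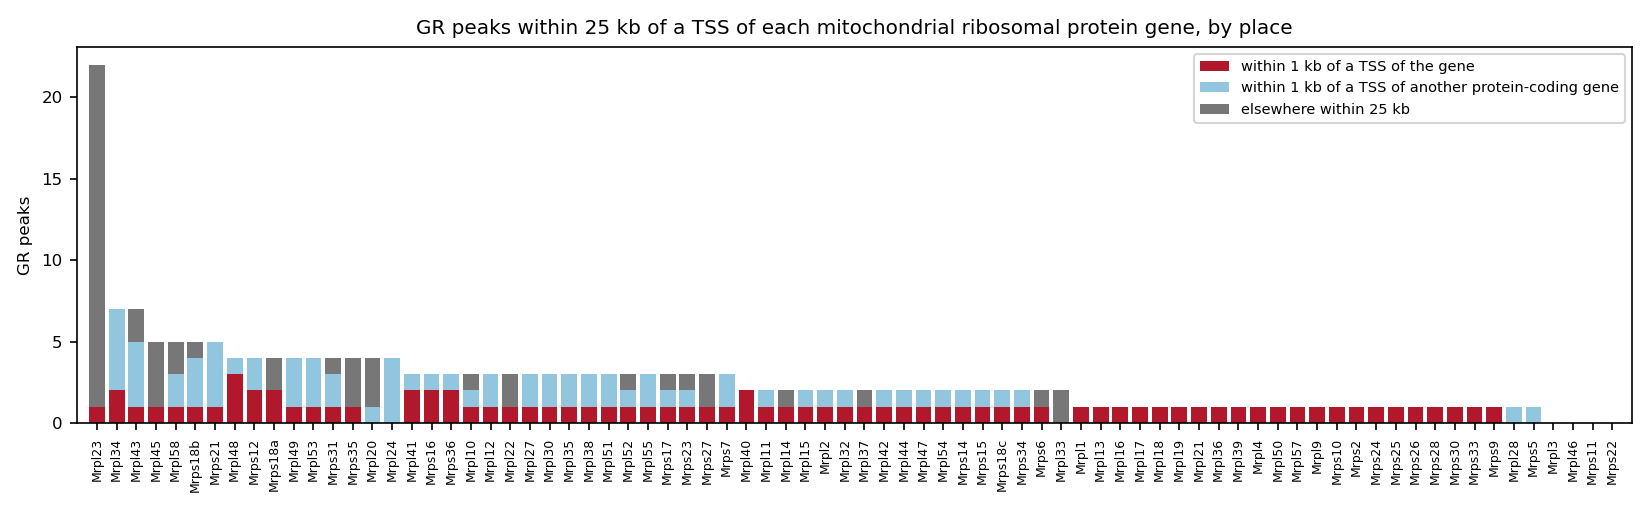
Stacked bars count the GR peaks within 25 kb of a TSS of each of the 78 members: at its own TSS (red), within 1 kb of a TSS of another protein-coding gene (light blue) and elsewhere (grey). Mrpl23 stands alone with 22, the next have 7, and Mrpl3, Mrpl46, Mrps11 and Mrps22 have none.

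Inside the genes few members had GR or Pol2 peaks beyond the promoter. GR peaks were found in the body of 68 members (87.2%, against 45.2% of all genes). The members were short, with a median length of 7899.5 bases against 17425 for all genes, and 4 of them had no bases left once 1 kb around each TSS was left out. Beyond 1 kb from each TSS, GR was found in 6 of all 78 (against 15.1% of all 21938 genes): Mrpl33, Mrps6, Mrps18a, Mrps27, Mrps28 and Mrps35. For no mark was the share among active genes computed in this way. Pol2 was in the body of 77 members (98.7%, against 46.4%) and, away from the TSS, in 4 (7.38% of all genes), which were Mrpl33, Mrpl51, Mrps27 and Mrps34. H3K4me3 was in the body of 78 (62.8%), H3K27ac of 77 (53.8%) and CTCF of 10 (13.6%). Away from the TSS the counts were 7 (19.7% of all genes), 9 (21.4%) and 4 (8.93%). H3K4me1 alone kept most of its members there, 63 (59.3% of all genes) of 75 in the body (69.8%). A peak counted here when at least 1 base lay farther than 1 kb from each TSS, so a wide promoter peak that reaches past 1 kb counts. In the 69 members with GR at the TSS, the widest H3K4me1 peak there had a median of 2201 bases, against 596 for H3K27ac. The part of peak width in these counts was not tested. Mrps27 carried GR, Pol2, H3K4me3, H3K27ac, H3K4me1 and CTCF inside the gene away from its TSS, the only member listed for all 6. Pol2 peaks covered a median of 2.49% of the gene, against 0.951% in active genes. The highest values were those of Mrpl41 (24.0%), Mrpl53 (23.3%), Mrpl36 (20.8%), Mrpl54 (20.4%) and Mrpl34 (18.4%). These are short genes of 982, 900, 3666, 2222 and 789 bases, in which a promoter peak fills a large share. The median length of active genes was 24495 bases, and the part of length in this and in the counts away from the TSS was not tested. For comparison, Pol2 coverage among the 14 muscle fibre marker genes ran from 0.744% (Myh2) to 100% (Acta1 among others).

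Many members start next to another gene. A TSS of another protein-coding gene lay within 1 kb for 34 members (43.6%), against 14.6% of all genes and 25.6% of active genes. OXPHOS genes had such a neighbour in 40.7% and cytosolic ribosomal protein genes in 22.6%. In 33 of the 34 members the neighbour was on the opposite strand. The same held for 2708 of the 3200 genes with a neighbour among all genes, and for 2305 of 2585 among active genes. Only the strands were compared, so whether neighbours run apart or towards each other was not tested. In 5 members the neighbour was in the mitochondrial gene lists used here, which include the members themselves. The share over all genes was not computed, so nothing is read from this count. Ndufs6 of respiratory complex I starts 29 bases from Mrpl36, and Ndufb5 of the same complex 20 bases from Mrpl47. The mitochondrial seryl-tRNA synthetase gene Sars2 starts 172 bases from Mrps12. Mrpl46 and Mrps11 are each other's neighbour, so both enter the count. Neighbours outside these lists were not sorted by role. Twnk, the mitochondrial DNA helicase, for example, starts 116 bases from Mrpl43. GR was at 31 of the 34 members with such a neighbour (91.2%) and at 38 of the 44 without (86.4%). Among all genes the shares were 75% and 37.9%. A peak in a shared promoter cannot be assigned to 1 of its genes.

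CTCF showed the opposite split, in small counts. It was at 1 of the 34 members with a neighbouring TSS (Mrps12) and at 10 of the 44 without. Among all genes CTCF was at 9.38% of those with a neighbour and 7.23% of those without. Mrps33 had the strongest CTCF peak (fold 22.39), with its summit 10 bases from a TSS, followed by Mrpl17 (19.59), Mrps14 (14), Mrpl34 (13.74), Mrps16 (10.64), Mrpl38 and Mrps12 (9.517 each), Mrpl23 (9.383), Mrps2 (7.972), Mrpl11 (7.837) and Mrpl39 (7.574). The median of these 11 was 9.517, against 8.599 for all CTCF peaks within 1 kb of a protein-coding TSS. All 11 overlapped a GR peak, against 58.1% of all promoter CTCF peaks and 68.1% of those at active genes. H3K4me3 was overlapped by 9 (81.8%), against 72.9% and 79.7%. A core CTCF consensus, chosen after the values were seen, stood within 100 bases of the summit in 1 of the 11 (Mrpl11), in 15.3% of promoter CTCF peaks and in 27.3% of the CTCF peaks elsewhere. The part of promoter chromatin as such in these CTCF peaks was not tested. Within 25 kb, CTCF was found at 39 members (50%), against 31.6% of all genes and 42.4% of active genes.

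Some members have roles outside, or symbols at odds with, their subunit. Mrps12 encodes the protein of the decoding centre, and its TSS held a pair of GR peaks (widest 369 bases), a pair of Pol2 peaks, H3K4me3 with a fold of 40.52 and the CTCF peak named above. Mrpl12, which also binds the mitochondrial RNA polymerase, had 1 GR peak of 288 bases over the TSS and an H3K4me3 fold of 50.91. Mrps2 had a GR peak of 255 bases and a fold of 41.41. The genes Mrps18a, Mrps18b and Mrps18c encode 3 versions of the same bacterial protein, and GR was at the TSS of all 3, with widths of 310, 231 and 145 bases and H3K4me3 folds of 43.11, 32.53 and 35.7. In Mrps18b the GR peak lay 468 bases from the nearest TSS of the gene and over a TSS of its neighbour Ppp1r10. Mrps30 is placed in the large subunit in structures in spite of its symbol, and had 1 GR peak of 280 bases and a fold of 58.7. Mrps36 is better known as a subunit of the 2-oxoglutarate dehydrogenase complex, and had a pair of GR peaks (widest 314 bases), a Pol2 peak of 804 bases and a fold of 54.69. These values lie within the range of the other members.

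The rest of the mitochondrial translation pathway looked much like the members. Of 57 further genes, H3K4me3 was at 57, Pol2 at 56, H3K27ac at 56 and GR at 46 (80.7%, against 43.4% of all genes and 86.8% of active genes). By list, GR was at 5 of 5 mitochondrial ribosome proteins with other names, 8 of 11 translation factors, 14 of 17 mitochondrial tRNA synthetases, 15 of 19 ribosome assembly and rRNA genes and 4 of 5 genes of mitochondrial transcription. Dap3, the GTP-binding protein of the small subunit, had a GR peak of 682 bases and a fold of 42.31. The elongation factor gene Tufm had 9 GR peaks within 25 kb, 1 of them at the TSS. GR was missing at the TSS of Polrmt, the mitochondrial RNA polymerase (H3K4me3 fold 20.7), of the initiation factor gene Mtif3, of Mtfmt, which encodes the enzyme that formylates the initiator methionyl-tRNA, of the release factor gene Mtrf1, of the synthetase genes Cars2, Iars2 and Nars2, and of Gtpbp10, Mrm2, Mterf4 and Fastkd2. Fastkd2 also lacked Pol2 and H3K27ac. Tfam, which packages mitochondrial DNA and takes part in starting its transcription, had a GR peak of 418 bases and a fold of 43.97.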

How the data were processed

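Peak lists of 6 antibodies, 1 library each, were used as deposited. Per the submitters' processing notes, bcl2fastq 2.17.1.14, Bowtie 1.0.0 and MACS2 (no version) were used on build mm10; the role and order of these steps and any threshold are not given here. All lists give peak positions. For CTCF and H3K4me3 the authors also deposited a score, a fold (ratio) of enrichment, −log10 p and −log10 q values and a summit. The columns carry no names and were identified by value: the score equals 10 times −log10 q, truncated. Depth is unknown.

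Overlap meant at least 1 base. Genes and TSS came from GENCODE for GRCm38, promoters from RefSeq (GRCm38.p6, 69 of 78 matched and equal to the genome). Mitochondrial genome peaks stayed out of all counts. Python 3.11.15 with numpy 2.4.6, scipy 1.17.1 and matplotlib 3.10.9 was used; overlap and motif searches were tested on simulated data. Members and lists were chosen with earlier results of these data known; gene lists, windows and the rule for names were then kept. Named were the members lacking Pol2, H3K4me3 or H3K27ac; those with the most or no GR within 25 kb; the 5 highest and lowest H3K4me3 folds; CTCF by fold; the 5 highest Pol2 coverages; the 3 widest GR peaks; and a list chosen for role. Other names, the CTCF consensus and the start codon count were chosen after values were seen. Alternatives changed windows, midpoints, TSS choice and list strength.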

Additional observations from a re-analysis of the deposited data

Results flagged for a closer look

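The GR, H3K4me3 and CTCF lists held peaks on the mitochondrial genome, which encodes the ribosomal RNAs that the proteins of these genes bind, and which no comparison above used. There were 8 GR peaks, 2 of them over the ribosomal RNA genes mt-Rnr1 or mt-Rnr2, with a widest of 3278 bases. There were 7 H3K4me3 peaks, 1 over mt-Rnr2, with folds from 1.626 to 2.659, all below the lowest H3K4me3 fold at a member TSS (22.78). There were 5 CTCF peaks, 1 of them over both ribosomal RNA genes, with folds from 3.716 to 5.795, below the lowest CTCF fold at a member TSS (7.574). Pol2 had 1 peak there and H3K27ac and H3K4me1 had 0. The part of DNA copy number in these peaks was not tested.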

How the results depend on the processing

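Of 89 alternative values for 27 counts and medians, 76 stayed within 1.5 times the count reported or within the exact 95% interval of the median. Among them were all values for peaks at the TSS, though some of these fell within that limit. With the widest 50% of the list, Pol2 was at 52 members' TSS (31.2% of all genes) and GR at 53 (30.9%). H3K4me1 was at 56 by peak midpoint, for which no share over all genes was computed. With 1 kb around each TSS left out of the gene, members with a peak in the body numbered 6 for GR, 4 for Pol2, 7 for H3K4me3, 9 for H3K27ac and 4 for CTCF, and the median Pol2 coverage was 0%; the promoter peaks had made up most of these counts. GR was in the body of 42 members by peak midpoint, and Pol2 of 49 with the widest 50% of its list. CTCF was within 10 kb of 24 members. The median of GR peaks was 1 within 10 kb, 5 within 100 kb and 1 with the widest 50% of the list. The NRF1 motif stood in 4 promoters (5.8%) with 100 bases on each side of the start, against 3.5% of active genes. No paired analysis was possible because each antibody has 1 library. Depth was unknown and limits what an absent peak can mean: it says that none was listed. The fold was deposited for H3K4me3 and CTCF only.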
